A study of Mus musculus with 2 samples.

Results

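The cells described here are leukocytes of the mouse aorta that carried mRNA of Elane, Prtn3 and Mpo. These genes encode neutrophil elastase, proteinase 3 and myeloperoxidase, which are packed into the primary (azurophil) granules of myeloid cells. A cell was a member when it had at least 500 detected genes and at most 15% mitochondrial UMIs, at least 5 UMIs over Elane, Prtn3 and Mpo, at most 1 UMI over the macrophage genes C1qa, C1qb and C1qc, and none of the T cell gene Cd3e or the B cell gene Cd79a. A UMI (unique molecular identifier) stands for 1 captured transcript molecule. The rule found 92 of 24504 kept cells (0.375%), 44 of 12466 in the library labelled treated and 48 of 12038 in the library labelled control.

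The study profiled CD45+ leukocytes of the mouse aorta by droplet single-cell RNA sequencing, to ask how ZnDPA@siIRF5, a preparation named for a small interfering RNA against Irf5, acts on macrophages of the lesion. There was 1 library in each group, 1 labelled as the ZnDPA@siIRF5-treated group and 1 as the control group. The labels used here give neither genotype, diet, age or number of animals, nor what the control group received. With no replicates there was no test and no p-value: every difference is between 2 libraries, every interval is at 95% and covers counting error only, and animal, dissection and library cannot be told apart from treatment. The libraries are named by their labels throughout, because mRNA of the target Irf5 stood higher, not lower, in the one labelled treated.

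Neutrophils and monocytes share a progenitor that is usually found in bone marrow. As granulocyte precursors mature they make the primary granule proteases first, then the proteins of secondary (specific) granules such as lactoferrin and cathelicidin, and they stop dividing before they become segmented neutrophils. The protease genes are switched off at maturity, so their mRNA marks an immature stage, and precursors committed to monocytes carry some of it too. PU.1 and C/EBP factors and MYB are known regulators of these genes.

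Elane and Prtn3 are neighbours on mouse chromosome 10 (Elane 79886247 to 79888215 and Prtn3 79874476 to 79883174, both on the plus strand). Mpo lies on chromosome 11 (87793581 to 87804413, plus strand) and Ctsg, encoding the related protease cathepsin G, on chromosome 14 (56099881 to 56102574, minus strand), all in GENCODE vM21 of GRCm38. Their upstream sequences are shown because these 4 genes were among the 5 with the highest levels relative to all other kept cells, together with Ms4a3. The sequences are from RefSeq (GRCm38.p6), 5′ to 3′ on the gene's strand, within the 250 bases before the RefSeq start and without any base in a GENCODE exon. They lie at chr10:79886062-79886246 (Elane, plus strand), chr10:79879417-79879613 (Prtn3, plus strand), chr11:87793534-87793580 (Mpo, plus strand) and chr14:56102575-56102824 (Ctsg, minus strand). Capitals mark GAGGAA or its reverse complement TTCCTC, the core of many PU.1 sites.
Elane: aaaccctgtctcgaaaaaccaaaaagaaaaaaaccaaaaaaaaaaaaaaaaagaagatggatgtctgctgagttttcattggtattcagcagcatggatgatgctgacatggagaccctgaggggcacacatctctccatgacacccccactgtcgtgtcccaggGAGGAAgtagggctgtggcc
Prtn3: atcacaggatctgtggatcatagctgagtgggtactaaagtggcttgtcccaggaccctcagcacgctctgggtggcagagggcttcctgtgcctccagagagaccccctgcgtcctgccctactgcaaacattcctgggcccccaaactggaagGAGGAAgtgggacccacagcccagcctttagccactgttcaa
Mpo: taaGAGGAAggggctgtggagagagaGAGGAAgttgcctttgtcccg
Ctsg: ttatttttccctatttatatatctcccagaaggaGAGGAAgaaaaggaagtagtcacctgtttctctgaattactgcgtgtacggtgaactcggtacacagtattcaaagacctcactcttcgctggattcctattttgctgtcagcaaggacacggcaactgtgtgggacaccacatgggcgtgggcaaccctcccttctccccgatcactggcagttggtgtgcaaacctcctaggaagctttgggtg
The Prtn3 stretch lies inside the gene as GENCODE gives it, in an intron of a transcript that starts further upstream, whereas the other 3 lie before their genes. The motif began 20 bases before the next downstream GENCODE exon in Elane, 42 bases before it in Prtn3, 44 and 21 bases before it in Mpo, and 216 bases before it in Ctsg. Over the full 250 bases upstream, both strands searched, GAGGAA was held by 7 of the 14 azurophil granule genes with an entry (50%), by 8 of 14 specific granule genes (57.1%) and by 23.1% of all 27025 promoters. The C/EBP-type pattern TTNNGNAA was held by 42.9% of the azurophil genes, 64.3% of the specific granule genes and 36.9% of all promoters. The short MYB-type pattern AACNG was held by 14 of 14 azurophil genes and by 74.1% of all promoters. A match describes letters, not a bound site.

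The values that chose the cells ranged widely. The sum of Elane, Prtn3 and Mpo was 5 to 1011 UMIs in the library labelled treated (median 18.5) and 5 to 1247 in the library labelled control (median 53.5). In the library labelled treated 24 cells had 5 to 19 UMIs, 8 had 20 to 99 and 12 had 100 or more. In the library labelled control these numbers were 17, 11 and 20. Thus 44.6% of all members lay in the lowest of these bands. Just inside the limit, at 5 or 6 UMIs, were 8 and 4 cells, and just outside it, at 3 or 4 UMIs, were 32 and 20 cells, in the order treated and control. Prtn3 was found in all 92 cells, Elane in 79 and Mpo in 60.

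A further 29 cells in each library had 5 or more UMIs of the 3 genes but were left out by C1q, Cd3e or Cd79a UMIs. The background of free RNA in droplets was read in T cells: at least 1 UMI of the 3 genes was found in 1.27% of them (median 4917 UMIs) in the library labelled treated and 1.52% (median 4082.5) in the library labelled control. Members were deep cells, with a median of 18105 and 20396.5 UMIs against 4712.5 and 4766 over all kept cells. Scrublet marked none of the 92 as a doublet, although it marked 505 and 463 barcodes in all. The libraries shared 45 barcode sequences, and 1 member carried a shared barcode.

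Among kept cells of the library labelled treated the share of members was 0.353% (exact Clopper-Pearson interval 0.257 to 0.474). In the library labelled control it was 0.399% (0.294 to 0.528). The log2 ratio of the shares was -0.18 (-0.80 to 0.44), so no difference was detectable at these cell numbers.

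The members were not of a single kind. Of the 92, 34 held at least 10 UMIs of the secondary granule genes Camp (cathelicidin), Ngp (neutrophilic granule protein), Ltf (lactoferrin) and Lcn2 (lipocalin 2). Another 45 (48.9%) were under that limit and held at least 5 UMIs of Irf8, Csf1r, Ly86 and F13a1, genes of the monocyte branch. The remaining 13 were under both limits, though some held a few UMIs of these genes, and are called cells with neither set. In the library labelled treated 13 cells (29.5%, 16.8 to 45.2) carried secondary granule genes, 24 (54.5%, 38.8 to 69.6) monocyte genes and 7 neither, and in the library labelled control 21 (43.8%, 29.5 to 58.8), 21 (43.8%) and 6. The intervals of the shares overlapped. These are ranges cut from scores, not types: 9 cells lay within 2 UMIs of the granule limit and 6 within 2 UMIs of the monocyte limit.

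**Figure D1:**
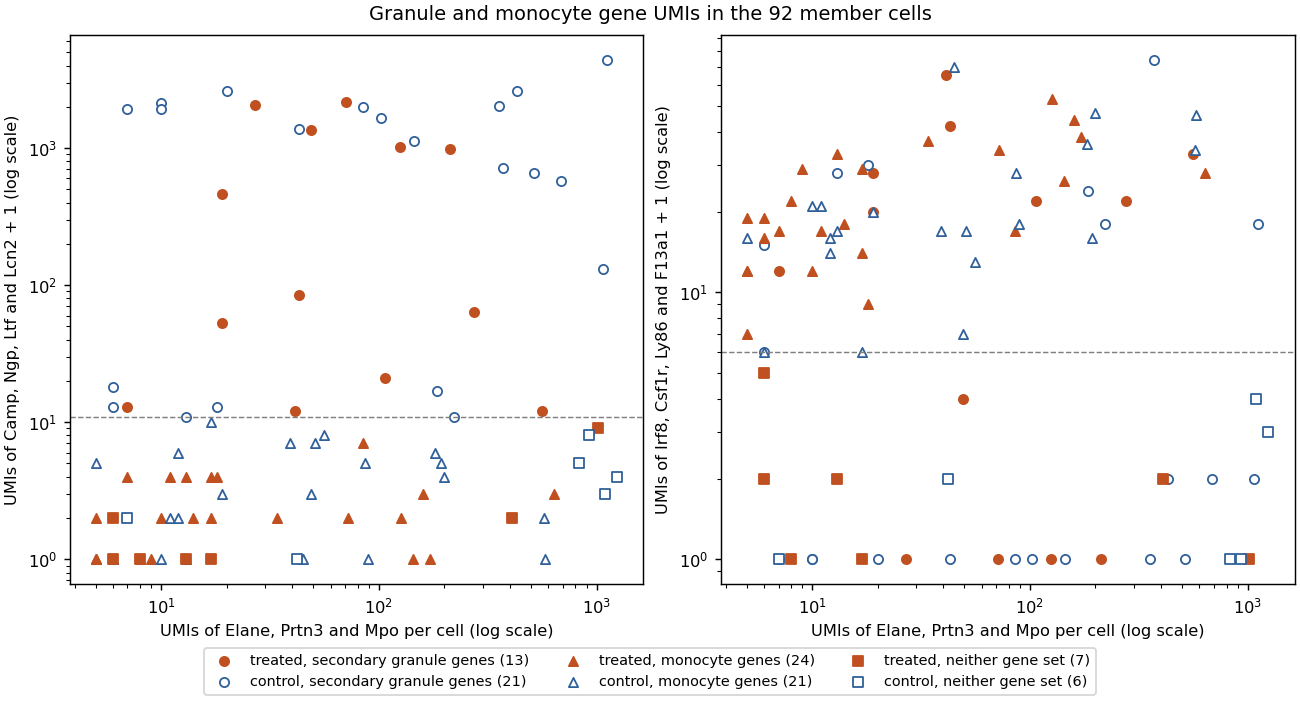
Each point is 1 of the 92 cells, with UMIs of Elane, Prtn3 and Mpo on the x axis (log scale), UMIs of 4 secondary granule genes plus 1 (left) or 4 monocyte genes plus 1 (right) on the y axis (log scale), and dashed lines at the limits of 10 and 5 UMIs. Filled points are the library labelled treated and open points the library labelled control; 21 cells hold 100 or more secondary granule UMIs and 13 hold 10 to 99, and cells above the monocyte limit occur at low and at high protease counts.

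The label of granulocyte precursors held for part of the cells. Camp and Ngp together reached 10 UMIs in 22 cells, of which 7 were treated and 15 control by label. The other 12 cells of the secondary granule range, 6 in each library, had at most 1 UMI of Camp and Ngp, met the limit through Lcn2 or Ltf, and all held at least 5 UMIs of the monocyte genes (5 to 64). Cebpe, which encodes the C/EBP factor of the secondary granule stage, was detected in 20 of the 22 cells with Camp and Ngp, in 2 of those 12 and in 5 of the 45 with monocyte genes. With the granule limit set on Camp and Ngp alone, a split chosen after the data were seen, the monocyte share of members was 68.2% and 56.2%, and the secondary granule share 15.9% and 31.2%, in the order treated and control. Ly6c2, a surface marker of classical monocytes and their precursors, was detected in 44 of the 45 cells with monocyte genes. It was also detected in 34 of 34 cells of the secondary granule range and in 22 of the 22 with Camp and Ngp. Its detection thus did not separate these ranges, and 43.5% and 46.4% of T cells held it too. Of the 13 cells with neither set 9 held it. Its level was 2021 and 1928 CPM in the cells with monocyte genes. In the secondary granule range it was 2414 and 1063 CPM, and in the cells with neither set 755 and 584 CPM. The 8 classical monocyte markers summed to 8732 and 7828 CPM in the secondary granule range and to 5580 and 4523 CPM in the cells with monocyte genes. In the secondary granule range, 16 of 34 cells also had at least 5 UMIs of the 4 monocyte genes. The members are therefore called here Elane, Prtn3 and Mpo cells, and the ranges are called by their genes.

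The secondary granule range held the highest granule mRNA. Camp stood at 19086 CPM (UMIs of a gene scaled to 1000000 UMIs of the summed cells) in the library labelled treated and 25097 CPM in the library labelled control in these cells, against 4.46 and 2.17 CPM in the cells with monocyte genes. Per cell, Camp ran from 0 to 1368 UMIs (median 27) in the former and from 0 to 2696 (median 573) in the latter. Fcnb, encoding ficolin B, a lectin of immature neutrophils, stood at 502 and 788 CPM in the same range and at 8.91 and 6.50 CPM in the cells with monocyte genes. Since Camp was used to cut the range, its level there is a description; Fcnb and Cebpe were not used. Cebpe was at 167 and 327 CPM, against 8.91 and 4.33 CPM in the cells with monocyte genes.

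Elane, a gene of the rule and so given as a description, was lowest in the cells with monocyte genes. It was at 943 and 1495 CPM there, against 2689 and 4702 CPM in the secondary granule range and 6404 and 10004 CPM in the cells with neither set, always in the order treated and control. The other proteases did not all share this order: Ctsg was at 778 and 938 CPM in the cells with monocyte genes against 677 and 1072 CPM in the secondary granule range. Mpo was at 853 and 983 CPM against 841 and 1196 CPM. Elane made up 29.1% of the summed UMIs of the 3 genes in the monocyte range and 44.5% in the secondary granule range. Genes not used for any limit that were higher there than in the other members of both libraries included Fn1 (fibronectin) at 684 and 275 CPM against 230 and 86.2 CPM, and Cd86, a co-stimulatory molecule, at 252 and 117 CPM against 54.6 and 42.4 CPM. Il3ra, the alpha chain of the interleukin 3 receptor, stood at 64.6 and 45.5 CPM against 17.3 and 11.7 CPM.

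The 13 cells with neither set had the highest CPM of Elane, Prtn3 and Mpo of the 3 ranges in both libraries, but unevenly between cells. Their median was 42 UMIs of the 3 genes per cell over both libraries, against 78 in the secondary granule range. Their Elane, Prtn3 and Mpo UMIs ran from 6 to 1011 in the library labelled treated (median 13) and from 7 to 1247 in the library labelled control (median 880.5). These are raw counts, and depth differed too: the median over all genes was 7852 UMIs per cell in the former and 28529.5 in the latter. The limits that define this range are raw UMIs as well. The part of depth in the gap between the protease medians was not tested. Ctsg was at 2121 and 6409 CPM there, and at 742 and 1009 CPM in the other members. Gfi1, a transcriptional repressor needed for neutrophil fate, was found in 6 of these 13 cells (93.1 and 71.5 CPM) and in 5 of the other 79. Cdk6, a kinase of the cell cycle that is high in progenitors, stood at 559 and 668 CPM against 207 and 221 CPM, and Nkg7 at 745 and 805 CPM against 87.2 and 148 CPM. The stem and progenitor genes Cd34 and Kit were sparse, in 18 and 17 of all 92 cells, and in 5 and 6 of these 13.

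**Figure D2:**
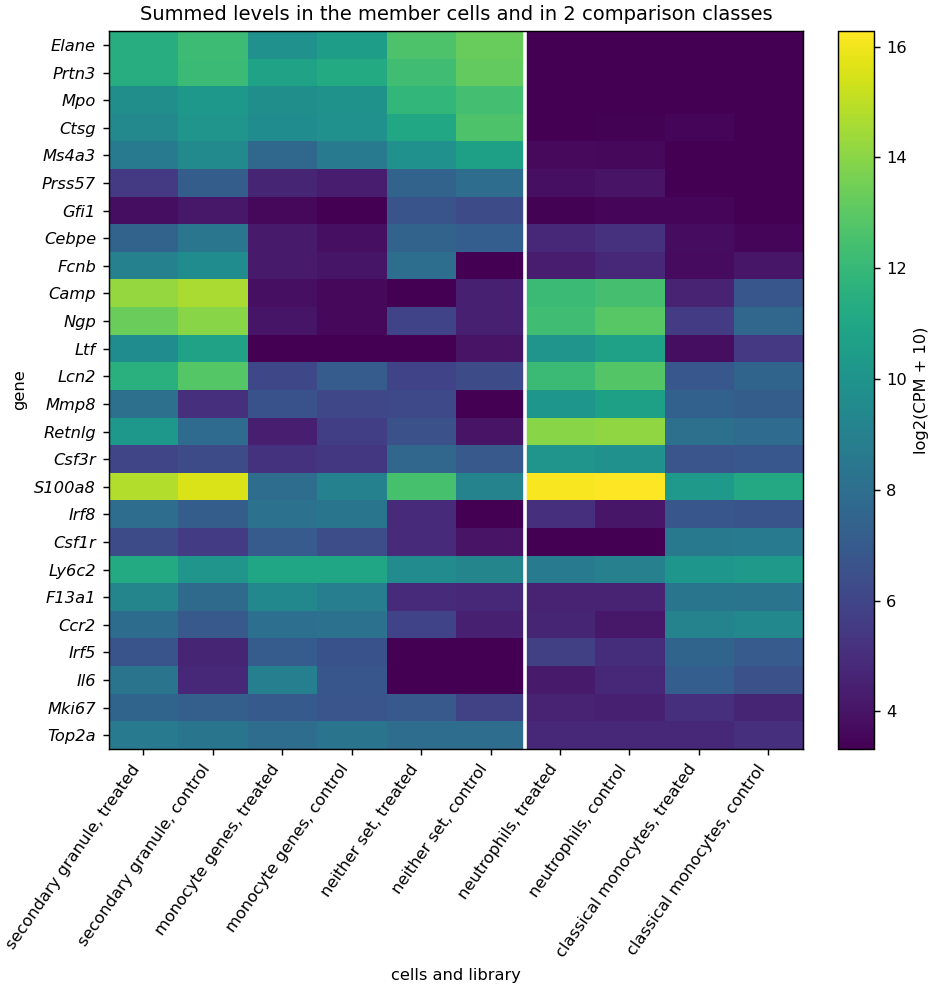
Colour gives log2(CPM + 10) of 26 genes (rows) in the 3 ranges of member cells and in neutrophils and classical monocytes, each in both libraries (columns). Granule proteases are bright in the 3 left pairs, Camp and Ngp in the secondary granule pair and the neutrophils, and Mki67 and Top2a in the 3 member pairs; Elane, Prtn3 and Mpo are at 0 in the comparison classes because those were chosen without them.

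Besides the genes of the rule, the highest ratios to all other kept cells were those of Ms4a3 (98.1-fold in the library labelled treated and 159-fold in the library labelled control), a marker of granulocyte and monocyte progenitors, and Ctsg (92.1-fold and 168-fold). Fcnb followed with 79.0-fold and 94.7-fold, Prss57, a further azurophil serine protease, with 29.8-fold and 70.7-fold, and Cebpe with 19.2-fold and 53.1-fold. Elane itself was 172-fold and 171-fold, Prtn3 96.8-fold and 155-fold, and Mpo 145-fold and 136-fold higher, as the rule requires. Gria3, Camp, Lmo1, Nrg1, Orm1, Ncam1 and Lbp completed the 15 leading genes. Of these, Nrg1, a growth factor of the neuregulin family, was found in 31 of 44 and 30 of 48 cells, at 515 and 274 CPM, and Ncam1, a cell adhesion molecule, in 14 and 25 cells at 86.6 and 122 CPM. All these ratios describe cells chosen on their own counts.

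Most members carried cell cycle mRNA, which the rule did not use. After each cell was thinned to 2000 UMIs, at least 5 UMIs of the DNA replication and mitosis lists were found in 39 of 43 members (90.7%, 77.9 to 97.4) in the library labelled treated and 44 of 47 (93.6%, 82.5 to 98.7) in the library labelled control. At the same depth the share was 17.2% and 18.7% of neutrophils, 5.91% and 13.6% of classical monocytes, 31.0% and 32.3% of T cells and 11.8% and 23.2% of B cells. The neutrophil shares are of 921 and 525 cells, because 632 and 246 with under 2000 UMIs were left out. Without thinning, and with no cell left out, the share was 97.7% and 100% of members, and 28.8% and 36.2% of neutrophils. Every cell of the secondary granule range passed, 13 of 13 and 21 of 21, and so did 21 of 24 and 18 of 21 cells with monocyte genes. Of the cells with neither set 3 of 6 passed in the library labelled treated (50%, 11.8 to 88.2) and 5 of 5 in the library labelled control. Thinning draws UMIs at random, and each range was thinned apart from the draw for all members. The counts of the ranges therefore need not add up to those of all members, and in the library labelled treated they did not. Free RNA was present in all classes, and its part in these shares was not tested.

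Set beside 2324 neutrophils (at least 20 UMIs of S100a8 and S100a9, at least 1 of Csf3r, none of Csf1r or of the 3 genes), members were high in proliferation and biosynthesis genes. Here a gene was counted when it was at least 2-fold higher or lower in both libraries, which held for 34.1% of 5654 genes in the higher and 16.7% in the lower direction. All 23 tested DNA replication genes, 22 of 24 genes of G2 and mitosis, 17 of 18 of ribosome biogenesis, 29 of 32 of oxidative phosphorylation and 23 of 30 of protein folding and secretion in the endoplasmic reticulum were higher. Their median log2 ratios were 4.84, 3.98, 3.85, 2.58 and 2.31. Of 22 genes of late granules and mature neutrophils, 19 were lower and none higher (median -3.35). S100a8, S100a9 and Csf3r of this list chose the neutrophils, and without them 16 of 19 were lower and none higher (median -3.48). Cxcr2, the chemokine receptor of mature neutrophils, was at 393 and 303 CPM in neutrophils and at 15.9 and 13.5 CPM in the secondary granule range. The neutrophils were shallower cells, with a median of 2173 and 2361 UMIs.

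Set beside 502 classical monocytes (at least 2 UMIs of Ly6c2, 1 of Ccr2 and 1 of Csf1r, none of the 3 genes), 9.26% of 6315 genes were higher and 13.3% lower by the same count. All 22 DNA replication genes and 22 of 24 genes of G2 and mitosis were higher, with medians of 4.37 and 3.80, and so were 11 of 18 ribosome biogenesis genes (median 1.38). Genes of activation were lower: 25 of 30 type I interferon response genes (median -2.44), 17 of 21 inflammatory genes (median -2.48), 6 of 8 genes of MHC class II antigen presentation (median -2.90) and 12 of 19 Toll-like receptor and adaptor genes (median -1.16). None of those 4 lists had a member that was higher. Oxidative phosphorylation, with 1 of 32 higher, and endoplasmic reticulum folding, with 0 of 32, did not show the difference seen against neutrophils.

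Between the libraries, 3653 genes had at least 50 UMIs in 1 library and at least 1 in the other. Of these, 351 (9.61%) were at least 1.5-fold higher and 228 (6.24%) at least 1.5-fold lower in the library labelled treated, and the median log2 ratio was 0.03. Within the cells with monocyte genes 7.99% of 1752 genes were higher and 7.93% lower. These percentages are the background for the counts of list members below. Each sum comes from 44 or 48 cells, so the share of a gene's UMIs in its top cell is given where it was high.

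The target gene Irf5, a transcription factor below Toll-like receptors, lies on chromosome 6 (29526625 to 29541871, plus strand). It was found in 28 of 44 cells in the library labelled treated, with 80 UMIs in all and 100.4 CPM (exact Poisson interval 79.6 to 125), and in 16 of 48 cells in the library labelled control, with 47 UMIs and 41.0 CPM (30.1 to 54.5). No cell of either library held more than 8 UMIs. The log2 ratio was 1.29 (0.75 to 1.84), higher in the library labelled treated. In the cells with monocyte genes it was 0.59 (-0.02 to 1.21), at 127 and 84.5 CPM, and in the secondary granule range 2.56 (1.35 to 3.94), at 91.6 and 15.5 CPM. Of the 31 UMIs in that range, 26 came from the 12 cells without Camp and Ngp, and the 22 cells with them held the other 5, all in the library labelled treated. In the 13 cells with neither set Irf5 had 0 UMIs. The same direction was seen in classical monocytes, at 171 and 122 CPM, and in neutrophils, at 44.6 and 22.1 CPM. In T cells, which served as a background class, 9.41% and 5.52% of cells had an Irf5 UMI, against 63.6% and 33.3% of members; at 2000 UMIs per cell the shares were 3.79% and 2.40% of T cells and 30.2% and 10.6% of members. A reduction of Irf5 mRNA in these cells was thus not seen.

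Inflammatory genes were higher in the library labelled treated. Of 15 tested genes of the list, 12 were at least 1.5-fold higher and none lower, with a median log2 ratio of 1.10 over 19 genes, against 9.61% of all genes. Il6, the cytokine interleukin 6, had 290 UMIs in 21 cells in the library labelled treated, with 364 CPM (323 to 409), and 55 UMIs in 13 cells in the library labelled control, with 48.0 CPM (36.2 to 62.5). The highest cell held 55 UMIs in the former and 18 in the latter, while the median cell held 0 in both, so the groups overlapped. The 22 cells with Camp and Ngp held 5 of the 345 Il6 UMIs, all in 1 cell. The log2 ratio of Il6 was 2.92 (2.5 to 3.37), the cell with the most UMIs gave 19% and 32.7% of the sum, and in the cells with monocyte genes the ratio was 2.25 (1.78 to 2.74). Il6 had a UMI in 2.06% and 0.71% of T cells. In classical monocytes its level was 138 and 83.7 CPM, a smaller ratio of 0.72 (0.35 to 1.11).

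**Figure D3:**
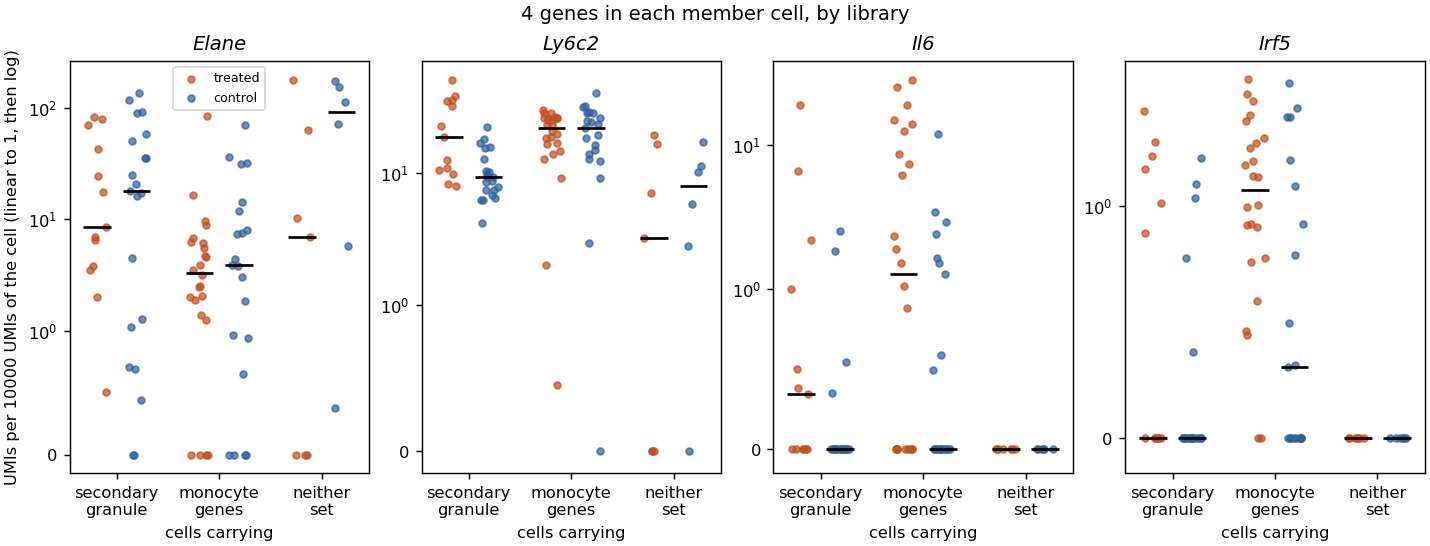
Each point is a cell, with UMIs of the gene per 10000 UMIs of that cell on the y axis (linear to 1, then log), by range and library; black lines are medians. Elane was lower in cells with monocyte genes, Irf5 and Il6 were at 0 in all 13 cells with neither set, and treated and control cells overlapped in every range where the gene was found.

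Other genes of the list with at least 50 UMIs in 1 library had smaller ratios. Ptgs2, encoding the prostaglandin synthase COX-2, had 139 and 72 UMIs (log2 ratio 1.47, 1.05 to 1.91), Tnfaip3, an inhibitor of NF-kappaB signalling, 189 and 100 UMIs (1.44, 1.09 to 1.81), and Ccl3, a chemokine, 58 and 31 UMIs (1.43, 0.78 to 2.11). Il1b, the cytokine interleukin 1 beta, had 671 and 883 UMIs and a log2 ratio of 0.13. In the cells with monocyte genes 7 of 11 tested genes of the list were higher and none lower, with a median of 0.96, against a background of 7.99%. Among genes of immediate early response and heat shock, Zfp36, which destabilises cytokine mRNA, stood at 677 and 251 CPM (1.43, 1.22 to 1.64), and the chaperone gene Hsp90aa1 at 402 and 854 CPM (-1.09, -1.27 to -0.90); 6 of 18 genes of that list were higher and 2 lower.

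Interferon and pattern recognition genes showed smaller counts in the same direction over all members. Of 9 tested genes of the interferon gamma response 4 were higher and none lower (median 0.64), among them the chemokine gene Cxcl10 with 288 and 126 UMIs (1.72, 1.41 to 2.03) and the transcription factor gene Irf1 with 51 and 36 UMIs (1.03, 0.38 to 1.68). Cxcl10 was found in 17 of 44 and 24 of 48 cells, so fewer cells held more UMIs in the library labelled treated. Of 7 genes of the type I interferon response 2 were higher (median 0.42): Ifi27l2a at 481 and 242 CPM (0.99) and Ly6a at 89.1 and 42.8 CPM (1.06), with 76.1% of the Ly6a UMIs of the library labelled treated in 1 cell and a ratio of -0.54 without the top cells. Of 8 Toll-like receptor and adaptor genes 3 were higher and none lower, namely Cd14, the lipopolysaccharide co-receptor (1.09, 0.91 to 1.27), Tlr2 (0.99, 0.59 to 1.40) and the kinase gene Irak2 (0.90, 0.44 to 1.37). In the cells with monocyte genes 1 of 7 interferon gamma genes was higher and none lower. There 2 of 6 type I genes were higher and 1 lower, and 3 of 6 Toll-like receptor and adaptor genes were higher and none lower. In the secondary granule range 1 of 5 interferon gamma genes was higher and 1 lower. Type I genes there had 2 of 4 higher, and Toll-like receptor and adaptor genes 2 of 3, with none lower in either list.

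Genes of the monocyte branch were higher in the library labelled treated. Of 18 tested genes 10 were at least 1.5-fold higher and none lower (median 0.80). Mpeg1, a pore-forming protein of phagocytes, stood at 213 and 75.0 CPM (1.51, 1.13 to 1.90), the nuclear receptor gene Nr4a1 at 192 and 75.0 CPM (1.36, 0.97 to 1.75) and the protease gene Ctss at 343 and 134 CPM (1.35, 1.06 to 1.65). In the cells with monocyte genes alone 4 of 15 were higher and none lower (median 0.42). Within the secondary granule range 8 of 11 were higher and 1 lower (median 1.02). Cells without Camp and Ngp were 6 of 13 in that range of the library labelled treated and 6 of 21 in the library labelled control. In the sums, more cells with monocyte mRNA and more of it per cell cannot be told apart. Irf8, Csf1r, Ly86 and F13a1 of this list were also used to cut the ranges. Of the receptors for growth factors and retention signals 5 of 15 were higher and none lower (median 0.38), with Csf1r, the receptor of macrophage colony-stimulating factor, at 91.7 and 48.0 CPM (0.93, 0.41 to 1.47). Fn1 had 387 and 186 UMIs (1.58, 1.33 to 1.84) and was also higher in classical monocytes, at 891 and 466 CPM.

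MHC class II antigen presentation genes were mostly higher in the library labelled treated. Of 8 tested genes 7 were higher and none lower (median 1.20). H2-DMb1, a chaperone of peptide loading, was found in 26 of 44 and 14 of 48 cells (74.1 and 19.2 CPM, log2 ratio 1.95, 1.22 to 2.73). H2-Ab1, a chain of the class II molecule, had 165 and 103 UMIs (1.20, 0.84 to 1.57), but 62.4% and 57.3% of them lay in a single cell of each library. In the cells with monocyte genes 6 of 7 tested genes were higher and none lower (median 2.83), and in the secondary granule range 3 of 5 were lower and 1 higher. With at least 20 UMIs of Elane, Prtn3 and Mpo required, the median of the list was -0.31 and that of H2-Ab1 -1.19, so the direction did not hold in the cells richest in protease mRNA. Markers of other antigen-presenting cells moved as follows: the 11 macrophage markers summed to 95.4 and 57.6 CPM, with 5 and 2 genes at 0, and the 8 dendritic cell markers to 56.5 and 96.0 CPM, with 3 and 2 genes at 0. In the library labelled control 11 of 48 cells held a UMI of a dendritic cell marker. The highest, in the secondary granule range, stood at 12.5 per 10000 UMIs, against 5.03 in the library labelled treated. A cell of that range held 54 UMIs of the dendritic cell marker Ccr7, so the dendritic sum of that library rested largely on 1 cell. The part of these markers in this result was not tested.

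Over all members, more specific granule genes were lower than higher in the library labelled treated. Of 15 tested specific granule genes 8 were at least 1.5-fold lower and 1 higher (median -0.61), against 6.24% and 9.61% of all genes. Lcn2, which binds bacterial siderophores, had 784 UMIs in 30 cells and 3878 UMIs in 38 cells (-1.78, -1.89 to -1.67), Ltf 196 UMIs in 7 cells and 923 in 15 (-1.71, -1.94 to -1.49), and Cd177, a surface protein of neutrophils, 42 UMIs in 10 cells and 189 in 17 (-1.65, -2.16 to -1.16). Pglyrp1, a peptidoglycan-binding protein, had 245 and 1072 UMIs (-1.60, -1.81 to -1.40). In these sums, fewer cells of the secondary granule range and less mRNA per cell cannot be told apart. Within that range, where 7 of 13 and 15 of 21 cells held Camp and Ngp, 6 of 14 genes were lower and 1 higher (median -0.33), and weighting the 3 ranges alike in both libraries gave a median of -0.25. In the cells with monocyte genes, where 8 genes of the list had at least 20 UMIs, the median was 0.27. Lcn2 and Ltf of this list were also used to cut the ranges. Cells with monocyte genes held under 10 UMIs of Camp, Ngp, Ltf and Lcn2 by definition. The values within ranges are therefore a description.

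Of the 12 tested azurophil granule genes 5 were lower and 1 higher (median -0.41). Without Elane, Prtn3 and Mpo 3 of 9 were lower and 1 higher (median -0.27). With these 3 genes counted, 1 of 6 was lower and 1 higher in the cells with monocyte genes (median -0.27). In the secondary granule range 5 of 9 were lower and 1 higher (median -0.35). The values of the rule's genes are a description: Elane had 1717 and 4797 UMIs (log2 ratio -0.96) and Prtn3 1933 and 5038 UMIs (-0.86). Ctsg, which the rule did not use, had 724 and 2062 UMIs (-0.99, -1.11 to -0.86), Prss57 32 and 112 UMIs (-1.28, -1.90 to -0.70) and Cd63, a granule membrane protein, 149 and 480 UMIs (-1.16, -1.44 to -0.89). The gene that was higher was Lyz2, lysozyme, which monocytes also make, with 4143 and 3478 UMIs (0.78). Ms4a3 stood at 340 and 715 CPM (-1.07, -1.27 to -0.87) and at 189 and 381 CPM in the cells with monocyte genes. Of the transcription factors of granulocytes 2 of 16 were higher and 4 lower (median -0.02), with Cebpe at 77.8 and 169 CPM (-1.12, -1.56 to -0.70).

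Late neutrophil genes went both ways. Of 15 tested genes of gelatinase granules and mature neutrophils 4 were higher and 4 lower (median 0.21). S100a9, a calcium-binding protein abundant in neutrophils, had 8579 and 34221 UMIs (-1.47, -1.51 to -1.44). Retnlg, a resistin-like protein of mature neutrophils, had 315 and 134 UMIs (1.76, 1.46 to 2.06), 40.6% of the former in 1 cell, and in the cells with monocyte genes the ratio was -1.96. The matrix protease gene Mmp8 was likewise higher, with 112 and 40 UMIs (2.01, 1.48 to 2.57), against the direction of the other specific granule genes named here.

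**Figure D4:**
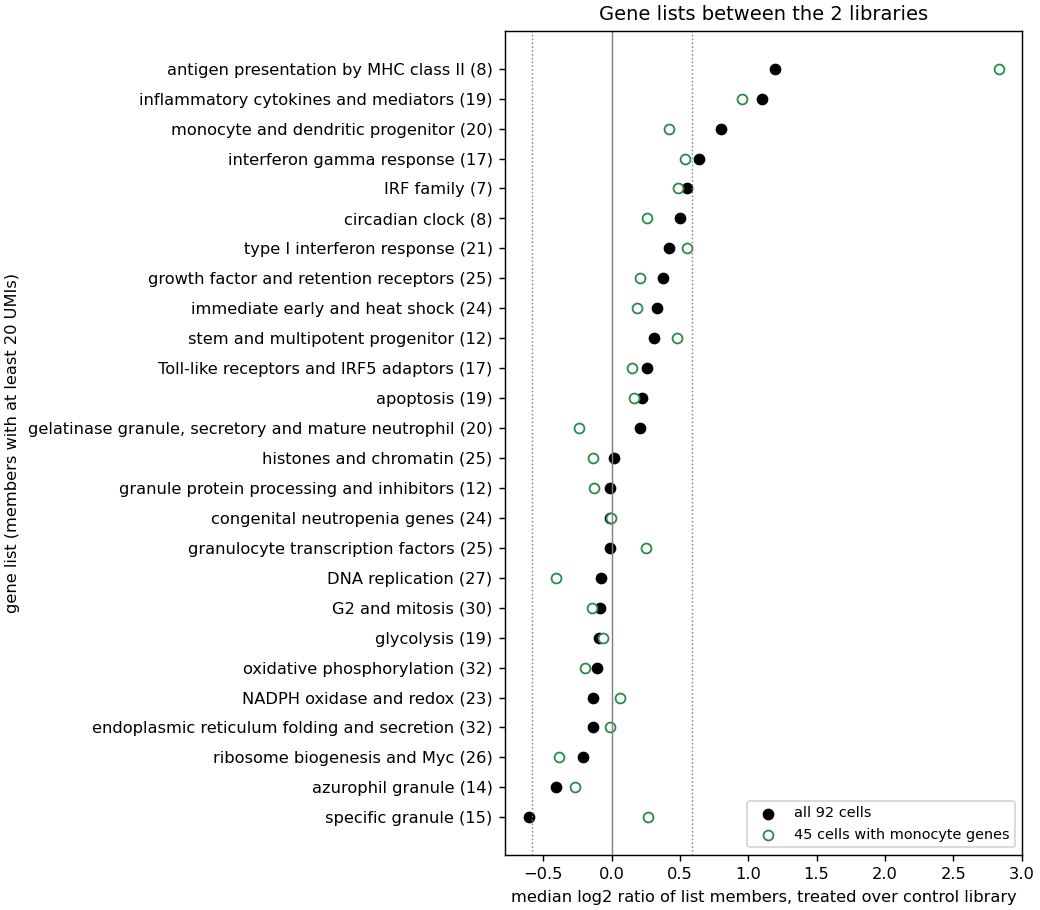
Points give the median log2 ratio (x axis, library labelled treated over library labelled control) of each gene list (y axis, with the number of members that had at least 20 UMIs), filled for all 92 cells and open for the 45 with monocyte genes; dotted lines mark 1.5-fold. Inflammatory, MHC class II and monocyte lists lie to the right, and the filled points of cycle and metabolism lists near 0. The filled points of the specific and azurophil granule lists lie to the left (-0.61 and -0.41). The azurophil list includes Elane, Prtn3 and Mpo, which chose the cells, and its median without them was -0.27. The open point of the specific granule list (0.27) and the filled point of the gelatinase granule and mature neutrophil list (0.21) lie right of 0. Lcn2 and Ltf of the specific granule list also cut the ranges, so its open point is a description.

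Over all members, proliferation and metabolism genes were close between the libraries. None of 23 DNA replication genes passed 1.5-fold in either direction (median -0.08), nor did 23 of 24 genes of G2 and mitosis (median -0.08), the exception being Cenpe, a kinesin of the centromere, with 27 and 62 UMIs (-0.67). Of 32 oxidative phosphorylation genes 1 was lower, Cyc1 at 128 and 196 CPM (-0.62), and the median was -0.11. Ribosome biogenesis had 3 of 18 genes lower (median -0.21), and endoplasmic reticulum folding 4 of 28 higher and 4 lower (median -0.14), with Calr, the chaperone calreticulin, at 456 and 829 CPM (-0.86, -1.04 to -0.69). In the cells with monocyte genes 3 of 17 DNA replication genes were lower and none higher (median -0.41). In the secondary granule range 1 of 12 was higher and none lower (median 0.20). In the same order of ranges, the medians were -0.14 and 0.12 for G2 and mitosis and -0.38 and -0.17 for ribosome biogenesis. Those of oxidative phosphorylation were -0.19 and -0.06.

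Among the 12 highest and 12 lowest ratios, several rested on few cells. Ctla2a, a cysteine protease inhibitor, had the highest ratio (3.98, 3.0 to 5.16) from 4 cells in each library, with 55.6% of the UMIs in the top cell of each. The lowest were Stfa1, a stefin, with 2 and 58 UMIs in 1 and 3 cells (-4.33), and Fkbp11 with 3 and 50 UMIs (-3.53, -5.86 to -1.90); Ccr7, a chemokine receptor, had 91.5% of its 59 UMIs in the library labelled control in 1 cell. More widely spread were the RNase gene Zc3h12c, in 18 of 44 and 8 of 48 cells (2.68, 1.80 to 3.67), Plbd1 in 23 and 13 cells (1.85, 1.11 to 2.63), and Hmox1, haem oxygenase, in 24 and 22 cells (1.58, 1.10 to 2.07). Comtd1, with 8 and 51 UMIs in 8 and 25 cells (-2.15, -3.43 to -1.06), Rflnb in 13 and 22 cells (-1.96, -2.77 to -1.23) and Ets1 in 8 and 21 cells (-1.59, -2.51 to -0.76) were lower. The remaining genes of this kind were Stxbp6 (1.65) and Phlda1 (1.58), which were higher, and Ica1 (-1.88) and Gca (-1.71), which were lower.

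Over members, the 8 mature neutrophil markers summed to 21207 and 52188 CPM and the 8 classical monocyte markers to 6092 and 5444 CPM, in the order treated and control. Marker sums of the other cell classes were lower. The 6 plasmacytoid dendritic cell markers summed to 251 and 281 CPM, with 3 genes at 0 in each library, and had a UMI in 41 and 40 cells. Plasma cell markers, mostly immunoglobulin mRNA, had a UMI in all 92 cells. They summed to 773 CPM in the library labelled treated and 1476 CPM in the library labelled control. The highest cell, at 431 per 10000 UMIs, was 1 of the 7 cells with neither set in the library labelled treated. In those 7 cells the plasma cell markers summed to 2504 CPM. The 11 T cell markers summed to 17.6 and 22.7 CPM, and the 10 B cell markers to 128 and 154 CPM. Of 8 erythroid markers 7 and 8 were at 0, and the 6 eosinophil markers summed to 3.77 and 4.36 CPM. The part of these RNAs in the ratios between libraries was not tested; with immunoglobulin genes and the 3 genes of the rule left out of the totals, the counts of higher and lower genes stayed within 1.5 times those given.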

How the data were processed

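The 2 libraries of aortic CD45+ leukocytes were made with the 10x Genomics 3′ kit v2, per the labels' protocols. The same protocol speaks of TRIzol lysis and snap-freezing of these leukocytes, which does not match a droplet library of intact cells and was not resolved. The authors deposited raw UMI counts for each gene in each barcode. The file headers name Cell Ranger 7.2.0, whereas the submitters' processing notes list mm10, Seurat 4.4.0 and Cell Ranger 3.1.0, so the version behind the counts is not settled. No source used here says if introns were counted, which would change the level of genes with long introns. The libraries held 77856529 and 88567528 UMIs over 13155 and 12516 barcodes, of which 511 and 352 were removed for under 500 genes and a further 178 and 126 for over 15% mitochondrial UMIs.

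In each library the members' UMIs were added up per gene and divided by their total (796445 and 1145942) to give CPM. Log2 ratios set treated over control, without a pseudocount. Levels have exact Poisson, ratios exact conditional binomial and shares exact Clopper-Pearson intervals at 95%, for counting error only. A gene was tested for size with at least 50 UMIs in 1 library and at least 1 in the other, and a list median used members with at least 20 UMIs over both. Named genes were the 12 highest and 12 lowest ratios with an interval that does not hold 0, up to 4 members of a list with the largest ratio and 50 UMIs in 1 library, any member whose level was the point, and the 15 genes highest over all other kept cells. Mitochondrial, ribosomal, haemoglobin, sex-linked, predicted, immunoglobulin and T cell receptor genes were left out of the extremes, and some genes the rule names are given by count only. Cd86, Il3ra, Cdk6, Cxcr2, Gfi1, Il1b and Lyz2 were named after their values were seen. T cells had at least 2 UMIs of Cd3e and B cells at least 3 of Cd79a. Doublets were called with Scrublet in scanpy 1.11.5 on all barcodes (Python 3.11.15, numpy 2.4.6, scipy 1.17.1). Ratio and interval code was tested on simulated counts. Members and gene lists were chosen with earlier results of these data known. The alternatives changed the minimum of the rule, filters, scaling, weights and top cells. Promoter sequences come from RefSeq, and protein sequences were not used here.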

Additional observations from a re-analysis of the deposited data

How the results depend on the processing

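With 1 library per group no replicate could be left out. No paired analysis was possible because there is 1 library in each group and no test. The settings below were listed with the design, except the minimum of 20 UMIs, the limit without immunoglobulin genes, the granule limit on Camp and Ngp, the cells with monocyte genes alone and the lists without the genes that chose the cells, which were chosen after seeing the data. Of 1449 ratios of named genes under other settings, 1242 stayed within the interval first given, 187 left it with the same direction or from a ratio under 1.5-fold, and 20 turned. Of 338 list medians the numbers were 321, 15 and 2. Some of these settings could hardly move a ratio, so the counts of unchanged ratios and medians were partly fixed by the choice of settings. Leaving out Scrublet-marked barcodes removed no member, nor did a limit of 10% mitochondrial UMIs. A minimum of 1000 genes left 43 and 48 members. Totals without immunoglobulin genes, Elane, Prtn3 and Mpo shift all ratios alike, and so does centring on the median. With these the Irf5 ratio went from 1.29 to 1.28 and 1.26. Depth set which genes could be read: 3653 reached 50 UMIs in 1 library, and 7752 reached 20 over both.

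With a minimum of 3 UMIs of Elane, Prtn3 and Mpo the shares of kept cells were 0.610% and 0.565%, the cycling shares 60.8% and 82.1%, and 642 genes were higher and 355 lower; the specific granule median was -1.04 and that of MHC class II 0.77. With a minimum of 10 the share in the library labelled treated was 0.249%, the MHC class II median 0.10, and Ly6a (-0.92), Cd274 (-0.10) and H2-Ab1 (-0.16) turned. With a minimum of 20 the shares were 0.160% and 0.258%, all members cycled (100% and 100%), the secondary granule share was 50% against 45.2%, in the order treated and control, which turned the order of the libraries (29.5% against 43.8% at the minimum of 5), 189 genes were higher, the specific granule median was -0.25 and that of MHC class II -0.31; Ctla2a (-1.05), Plbd1 (-0.75), Id3 (-2.30), Ly6a (-0.60), Ifi27l2a (-0.29), Cd274 (-0.094) and H2-Ab1 (-1.19) turned.

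Allowing at most 3 UMIs of T cell, B cell, plasma cell and macrophage markers left 1 and 0 cells (0.00802% and 0%), because immunoglobulin mRNA was in every cell, and gave no ratios. Without immunoglobulin genes and Jchain in that limit the shares were 0.136% and 0.15% (17 and 18 cells), 98 genes were higher and 101 lower, the Irf5 ratio was 0.70, and the medians were -0.13 for specific granule and 3.83 for MHC class II genes; Ets1 (0.094), Ccl6 (-0.17), Ifngr2 (-1.09) and Pdia4 (0.31) turned.

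In the cells with monocyte genes alone 140 genes were higher and 139 lower, the Irf5 ratio was 0.59, the specific granule median 0.27 and the MHC class II median 2.83; Retnlg (-1.96), Ccr7 (0.46), Prss57 (0.53), Serpinb1a (0.012) and Cebpe (1.04) turned. With each cell given the same weight the MHC class II median was 1.67, without the cell with the most UMIs of a gene in each library it was 0.84, with Ly6a at -0.54, and with the ranges given the same weights the specific granule median was -0.25. The cause of these shifts was not tested.

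At a thinning to 4000 UMIs 97.7% of members in the library labelled treated cycled. With ranges taken from cells thinned to 2000 UMIs the cells with neither set were 34.9% and 34.0%. With the granule limit on Camp and Ngp alone the secondary granule share in the library labelled treated was 15.9%. Counts of higher and lower genes were 893 and 576 with at least 20 UMIs, 150 and 106 with at least 100, 2254 and 1460 with no minimum beyond 1 UMI in each library, and 91 and 50 at 2-fold. Over all settings that gave ratios Il6 stayed between 2.25 and 3.34 and the inflammatory median between 0.96 and 1.36.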
